A study of Mus musculus with 25 samples.

Results

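Genes of cholesterol synthesis and of its control by the sterol regulatory element-binding proteins (SREBPs) were examined in translating mRNA of mouse spinal cord cholinergic neurons with and without *Bmal1*, a core activator of the circadian clock. The set holds 27 genes, chosen by name as enzymes of the pathway or parts of its control. All 27 were found among the 50559 rows of the count table, and all 27 had at least 10 counts summed over the immunoprecipitated (IP) libraries, as did 21738 rows in all. The lowest of them, *Lbr*, summed to 1015 counts, so no member lay near that minimum.

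RiboTag mice carry a hemagglutinin tag on a ribosomal protein that Cre switches on, and IP of the tag collects mRNA bound to ribosomes of the cells that express Cre. Here Cre was driven by *ChAT*, the gene for the enzyme that makes acetylcholine, so all 24 IP libraries came from *ChAT-Cre*;*RiboTag* fx/+ mice. ChAT-BKO mice were also *Bmal1* fx/fx, and controls carried no floxed *Bmal1*. Spinal cord was collected from 6-mo-old males at Zeitgeber Time (ZT, hours after lights on) 8, in the light, or ZT20, in the dark, with 6 mice in each of the 4 groups. One input library, pooled from both genotypes, was also sequenced. It carries the same cell type label as the IPs, but the study describes its input as whole spinal cord RNA, set aside before the IP. The Cre acts in all cells that use *ChAT*, motor neurons and other cholinergic neurons alike, and how many of them lost *Bmal1* was not measured here.

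Cholesterol is built from acetyl-CoA through mevalonate, isoprenoids and squalene, which is closed into lanosterol and then trimmed to cholesterol. When sterols run low in the endoplasmic reticulum, SCAP escorts SREBPs to the Golgi, where proteases including the product of *Mbtps1* release the part that enters the nucleus and switches on the genes of the pathway. INSIG proteins hold SCAP back when sterols are plentiful, and *Insig1* is itself an SREBP target. The adult nervous system makes its own cholesterol, mostly in glia, and the blood-brain barrier keeps out circulating lipoproteins. In liver the pathway is known for daily rhythms, and clock proteins bind the E-box, CACGTG.

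IP libraries held from 4035327 to 31685178 counts, and the input held 7396572. For *Arntl*, the symbol of *Bmal1* in the table, ChAT-BKO versus control gave a log2 fold change of -1.64 (SE 0.16) at ZT8 (adjusted P = 1.56e-05, edgeR quasi-likelihood test) and of -2.08 (SE 0.16) at ZT20 (adjusted P = 1.98e-07), with the 6 knockout libraries under every control at both times. All 7 cholinergic markers, *Chat* among them, were above the input (median log2 ratio 2.79), whereas 0 of 8 oligodendrocyte, 0 of 8 astrocyte and 0 of 6 microglia markers were (medians -3.24, -3.68 and -3.74). Glial RNA was still present: the summed level of the oligodendrocyte markers had group medians from 1832 to 1969 CPM (counts scaled to a common library size, after TMM correction), and that of the astrocyte markers from 215 to 235. Skeletal muscle markers differed between genotypes at ZT20, with a median summed level of 11.0 CPM (range 7.92 to 24.6) in controls and 59.6 CPM (range 5.15 to 83.8) in ChAT-BKO. Of these 6 markers 3 passed the test there, and their part in any value below was not tested.

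Promoter sequence was read from RefSeq (GRCm38.p6) over 250 bases before to 50 after each annotated start. Of the 27 members 23 matched, with 31 promoters between them. *Fdps*, *Fdft1*, *Sqle* and *Stard4* did not match. The stretches below are shown because they hold the clock's E-box (CACGTG, its own reverse complement) or the sterol regulatory element (TCACNCCAC, either strand) in a window that lies wholly before the annotated start of the gene. Those of *Scap* and *Dhcr7* reach into the annotated gene and are not printed. Each is printed 5′ to 3′ on the strand of the gene, with the matched letters in capitals.
*Insig1* E-box, chr5:28071281-28071346, plus strand: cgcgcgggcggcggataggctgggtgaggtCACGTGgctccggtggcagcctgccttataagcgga
*Hsd17b7* E-box, chr1:169969313-169969378, minus strand: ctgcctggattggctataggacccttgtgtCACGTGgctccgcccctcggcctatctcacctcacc
*Sc5d* E-box, chr9:42264363-42264428, minus strand: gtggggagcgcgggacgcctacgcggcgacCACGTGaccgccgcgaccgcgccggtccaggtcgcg
*Hmgcs1* sterol regulatory element, chr13:119690184-119690252, plus strand: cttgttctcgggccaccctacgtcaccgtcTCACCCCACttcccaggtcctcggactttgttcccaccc

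The first base of the E-box lay 101 bases before the start of *Insig1*, 143 before that of *Hsd17b7* and 98 before that of *Sc5d*, and the element of *Hmgcs1* began 137 bases before its start. *Scap* and *Dhcr7* also held an E-box, which made 5 of 23 matched genes and 6 of 31 member promoters (19.4%), against 7.15% of all 32851 promoters in the table. Both *Scap* promoters hold the same E-box, 40 bases before the one start and 29 after the other, so it is counted in both windows. In *Insig1* the E-box overlaps a match to AGGTCA, the core recognised by retinoid-related orphan receptors and their REV-ERB repressors. That core was in 16.1% of member promoters and 16.3% of all. The sterol regulatory element was found in 1 of 31 (3.23%, against 1.24% of all), and CCAAT, the letters bound by NF-Y, a partner of SREBPs, in 21 of 31 (67.7%, against 37.4%). Both strands were searched. A match describes letters in the window and does not show that a factor binds there.

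The members were detected over a wide range of levels. Scaled by the length of the longest coding transcript, which makes genes comparable, the mean over 24 IPs was highest for *Fdps*, the farnesyl diphosphate synthase, at 204 CPM per kb. *Pmvk* (phosphomevalonate kinase) followed at 105, *Fdft1* (squalene synthase, which commits isoprenoids to sterols) at 90.9, *Acat2* (acetoacetyl-CoA thiolase, at the entry of the pathway) at 87.5 and *Hmgcs1* (the synthase that makes HMG-CoA) at 75.3 CPM per kb. At the other end were *Ggps1* (geranylgeranyl diphosphate synthase, on the branch to protein prenylation) at 6.42, *Lss* (lanosterol synthase, which closes squalene epoxide into the first sterol) at 5.29 and *Lbr* (lamin B receptor, a nuclear envelope protein with sterol reductase activity) at 0.947 CPM per kb. *Tm7sf2*, which carries out the same reduction as *Lbr*, stood at 13.8 CPM per kb. Of the control genes, *Srebf2*, whose product mainly drives the cholesterol genes, was at 37.7 CPM per kb, *Insig1* at 34.4, *Scap* at 20.2, *Insig2* at 17.8, *Srebf1*, whose product also drives fatty acid genes, at 13.1 and the protease gene *Mbtps1* at 12.8.

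Group means are given for the members that are not described by library below. Around mevalonate, the lowest and highest of the 4 group means were 83.7 and 90.5 CPM for *Mvk*, 120 and 127 for *Pmvk*, and 69.1 and 77.8 for *Mvd*. They were 271 and 294 CPM for *Fdps*, 26.2 and 28.8 for *Ggps1*, 192 and 202 for *Acat2*, and 325 and 351 for *Fdft1*. *Fdft1* and *Fdps* had the highest of these means and *Ggps1* the lowest. Among the enzymes that take methyl groups off lanosterol, the means ran from 113 to 121 CPM for *Cyp51*, from 110 to 118 for *Msmo1*, from 31.0 to 34.4 for *Nsdhl* and from 29.3 to 31.9 for *Hsd17b7*. For the reductases, isomerase and desaturase that finish the molecule, they ran from 3.26 to 3.48 CPM for *Lbr*, from 41.7 to 44.9 for *Ebp*, from 71.0 to 75.5 for *Sc5d* and from 59.5 to 65.6 for *Dhcr7*. In SREBP control, they ran from 187 to 196 CPM for *Srebf2*, from 82.0 to 87.8 for *Scap* and from 46.0 to 50.4 for *Insig2*, and they ran from 45.7 to 51.7 CPM for *Stard4*.

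Levels varied little between mice. The median over members of the coefficient of variation within a group was 7.85%, against 10.5% over the 11342 genes with at least the mean CPM of *Lbr*. *Lbr* had a mean of 3.32 CPM and the next lowest member, *Tm7sf2*, 20.7 CPM, so these genes are not matched to the members for level. *Acat2* spanned 1.16-fold from the lowest to the highest of the 24 libraries and *Hmgcs1* 1.19-fold, from 234 to 280 CPM. The widest spans were those of *Lbr* (2.43-fold, on as few as 9 counts in a library), *Ebp*, the sterol isomerase (2.09-fold), *Lss* (1.90-fold) and *Nsdhl*, a dehydrogenase that helps remove the methyl groups of lanosterol (1.80-fold). Counts of *Mvd*, *Idi1*, *Fdps* and *Fdft1* were not whole in any IP library and those of *Acat2* in 95.8% of libraries, which RSEM gives where it divides reads between loci. Of the 27 members 5 overlap another annotated gene on the same strand, such as *Tm7sf2* with *Vps51*. On the opposite strand 11 do, such as *Lss* with *4930483K19Rik*, *Fdft1* with *Ctsb* and *Srebf1* with *Rai1*, and 13 members have neither overlap. The study made its libraries with a stranded kit, but the strand setting of the counting is not given in the sources used here. Whether reads of genes overlapping on opposite strands were kept apart is therefore not known.

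Relative to the input, the genes around mevalonate had the highest median ratio but differed widely from each other. The log2 ratio of IP to input had a median of 0.31 over the 27 members and -0.06 over all genes tested. Over the 11070 genes with a known length and at least the mean CPM of *Lbr* it was 0.23, close to the members. In all 24 libraries 16 members were above the input and 4 were below it, a count that was not made for all genes. By median ratio 70.4% of members were above the input, against 48.3% of all genes tested. By step, the median was 1.68 for the 8 genes around mevalonate (range -0.78 to 2.08) and 1.03 for the 3 from squalene to lanosterol. It was 0.37 for the 9 from lanosterol to cholesterol and -0.03 for the 6 of SREBP control. The ratio also went with transcript length, as given below. The input is 1 library, so these ratios have no test, and their position relative to 0 depends on the scaling: on total counts the median of the members was -0.15 and that of all genes -0.45.

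*Fdps* had the highest ratio (2.08, range 1.76 to 2.34 over 24 IPs), followed by *Acat2* (1.76), *Pmvk* (1.71), *Mvd*, the mevalonate diphosphate decarboxylase (1.68), *Mvk*, the mevalonate kinase (1.68), and *Fdft1* (1.59). *Ebp* stood at 1.21 and *Sqle*, the squalene epoxidase and a rate-limiting enzyme of the pathway, at 1.03. *Tm7sf2* was at 0.73, *Cyp51*, the lanosterol demethylase, at 0.47, *Dhcr7*, which catalyses a last reduction to cholesterol, at 0.46, *Hsd17b7*, a ketosteroid reductase, at 0.37 and *Msmo1*, the methyl sterol oxidase, at 0.31. *Stard4*, a carrier that moves cholesterol between membranes, stood at 0.30 and *Nsdhl* at 0.31. *Hmgcs1* was at the level of the input (0.00, range -0.18 to 0.09). *Idi1*, the isopentenyl diphosphate isomerase, was at -0.06 and *Sc5d*, the lathosterol desaturase, at -0.23. The 4 genes below the input in every IP were *Lbr* (-1.37), *Ggps1* (-0.78), *Lss* (-0.57) and *Srebf1* (-0.50).

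The ratio went with transcript length. Across the 27 members Pearson's r between the log2 ratio and log2 length was -0.69 (Spearman's rho -0.68), and across 11070 genes of similar or higher level it was -0.36 (rho -0.42). Among those genes the 3690 shortest had a median ratio of 0.74 and the 3688 longest of -0.30. These correlations are across genes, which share the same libraries and are not independent replicates. The part of length in the enrichment of single members was not tested.

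**Figure D1:**
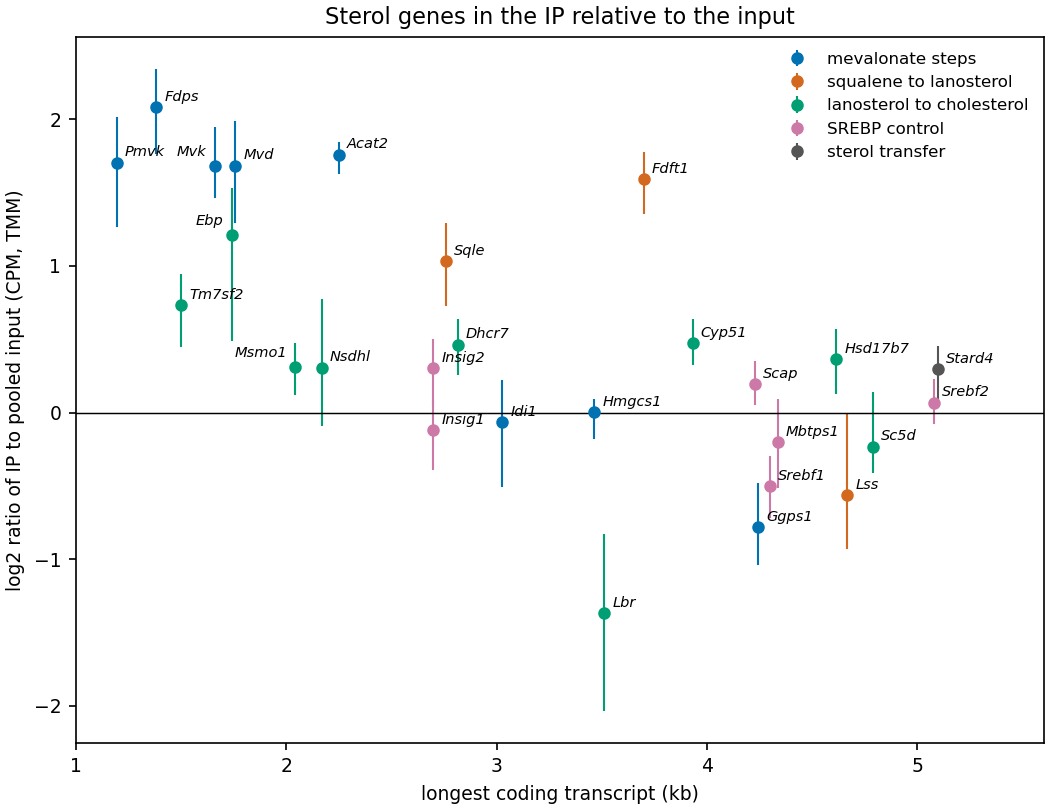
Log2 ratio of IP to pooled input (vertical axis, CPM after TMM scaling) against the length of the longest coding transcript in kb (horizontal axis) for the 27 genes, coloured by step; points are medians and bars run from the lowest to the highest of 24 IP libraries. *Fdps*, *Acat2*, *Pmvk*, *Mvd*, *Mvk* and *Fdft1* lie above 1.5, whereas *Lbr*, *Ggps1*, *Lss* and *Srebf1* lie below 0 with their whole bar.

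The question of whether loss of *Bmal1* changes these genes was asked at each time. At ZT8, 0 of 27 members passed the test (adjusted P < 0.05, edgeR), where 0.184% of all genes tested did. At an unadjusted P under 0.05 there was 1 member, against 4.83% of all genes, and DESeq2 and limma voom also called 0. The median log2 fold change of the members was -0.02, and for 24 of 27 the 95% confidence interval lay within 1.25-fold in either direction, for all 27 within 1.5-fold. In bulk RNA of this kind, fewer cells of a type and less RNA per cell cannot be told apart.

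*Hmgcs1* (chr13:119690379-119708260, GRCm38) lay between 261 and 273 CPM in controls at ZT8 (median 266) and between 255 and 280 in ChAT-BKO (median 270). *Sqle* (chr15:59315077-59331192) ran from 115 to 168 CPM in controls (median 137) and from 121 to 150 in ChAT-BKO (median 139). In both genes the groups overlapped almost fully. *Insig1* (chr5:28071363-28078662) ran from 79.1 to 108 CPM in controls (median 88.3) and from 85.8 to 107 in ChAT-BKO (median 102), a log2 fold change of 0.14 with an SE of 0.09 (adjusted P = 1.00 by edgeR; values after ± for fold changes below are SEs). *Srebf1* (chr11:60199089-60222581) ran from 57.3 to 65.1 CPM in controls (median 59.6) and from 55.0 to 58.0 in ChAT-BKO (median 55.5). Here 4 of 6 ChAT-BKO libraries were below every control, but the log2 fold change of -0.10 ± 0.05 did not pass (adjusted P = 1.00 by edgeR).

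The smallest P at ZT8 belonged to *Tm7sf2* (chr19:6062821-6068373). It ran from 19.1 to 24.0 CPM in controls (median 22.7) and from 17.0 to 19.6 in ChAT-BKO (median 18.2), so that 5 of 6 ChAT-BKO libraries were below every control. Its log2 fold change was -0.25 ± 0.08 (95% interval -0.42 to -0.08), and it did not pass over all genes (adjusted P = 0.660, edgeR). *Lss* (chr10:76531588-76557138) was next to it in P, from 19.2 to 31.0 CPM in controls and from 25.6 to 33.5 in ChAT-BKO, a log2 fold change of 0.22 ± 0.11 (adjusted P = 1.00 by edgeR).

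At ZT20, 0 of 27 members passed, where 0.23% of all genes did. At an unadjusted P under 0.05 there were 2 members, against 6.28% of all genes, and DESeq2 and limma voom called 0. The median log2 fold change was -0.01 for the members and -0.01 for all genes, and 26 of 27 intervals lay within 1.25-fold. *Idi1* (chr13:8885501-8892451) had the smallest P, with 58.7 to 73.3 CPM in controls (median 65.4) and 52.8 to 68.4 in ChAT-BKO (median 57.5). Its log2 fold change was -0.16 ± 0.07 (adjusted P = 0.763, edgeR), with 4 of 6 ChAT-BKO libraries below every control. *Srebf1* ran from 54.9 to 60.5 CPM in controls (median 56.7) and from 48.6 to 55.1 in ChAT-BKO (median 53.0). Of the ChAT-BKO libraries 5 of 6 were below every control, at a log2 fold change of -0.12 ± 0.05 (adjusted P = 0.773, edgeR). *Msmo1* had a log2 fold change of -0.11 ± 0.06 (adjusted P = 0.793, edgeR).

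*Hmgcs1* ran from 240 to 270 CPM in controls at ZT20 (median 259) and from 234 to 264 in ChAT-BKO (median 246). *Sqle* ran from 125 to 143 CPM in controls (median 135) and from 133 to 148 in ChAT-BKO (median 143). *Insig1* ran from 77.3 to 96.2 CPM in controls (median 87.8) and from 82.2 to 99.0 in ChAT-BKO (median 93.2). The groups overlapped for all 3 genes.

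Averaged over both times in 1 fit of all 24 libraries, 0 of 27 members passed for genotype, where 0.653% of all genes did. At an unadjusted P under 0.05 there were 4 members, against 7.28% of all genes, and DESeq2 and limma voom called 0. *Srebf1* had the smallest P, with a log2 fold change of -0.11 ± 0.03 (95% interval -0.18 to -0.04, adjusted P = 0.180, edgeR). *Hsd17b7* stood at 0.12 ± 0.05 (adjusted P = 0.605, edgeR) and *Idi1* at -0.13 ± 0.06 (adjusted P = 0.607, edgeR). The change in *Srebf1* amounted to a mean of 60.2 ± 2.9 CPM (SD, n = 6) in controls and 56.1 ± 1.28 in ChAT-BKO at ZT8, and 57.0 ± 2.07 and 52.7 ± 2.47 at ZT20. *Srebf2*, *Scap*, *Insig1* and *Insig2* had a log2 fold change above 0, none of them called. For 26 of 27 members the interval lay within 1.25-fold.

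**Figure D2:**
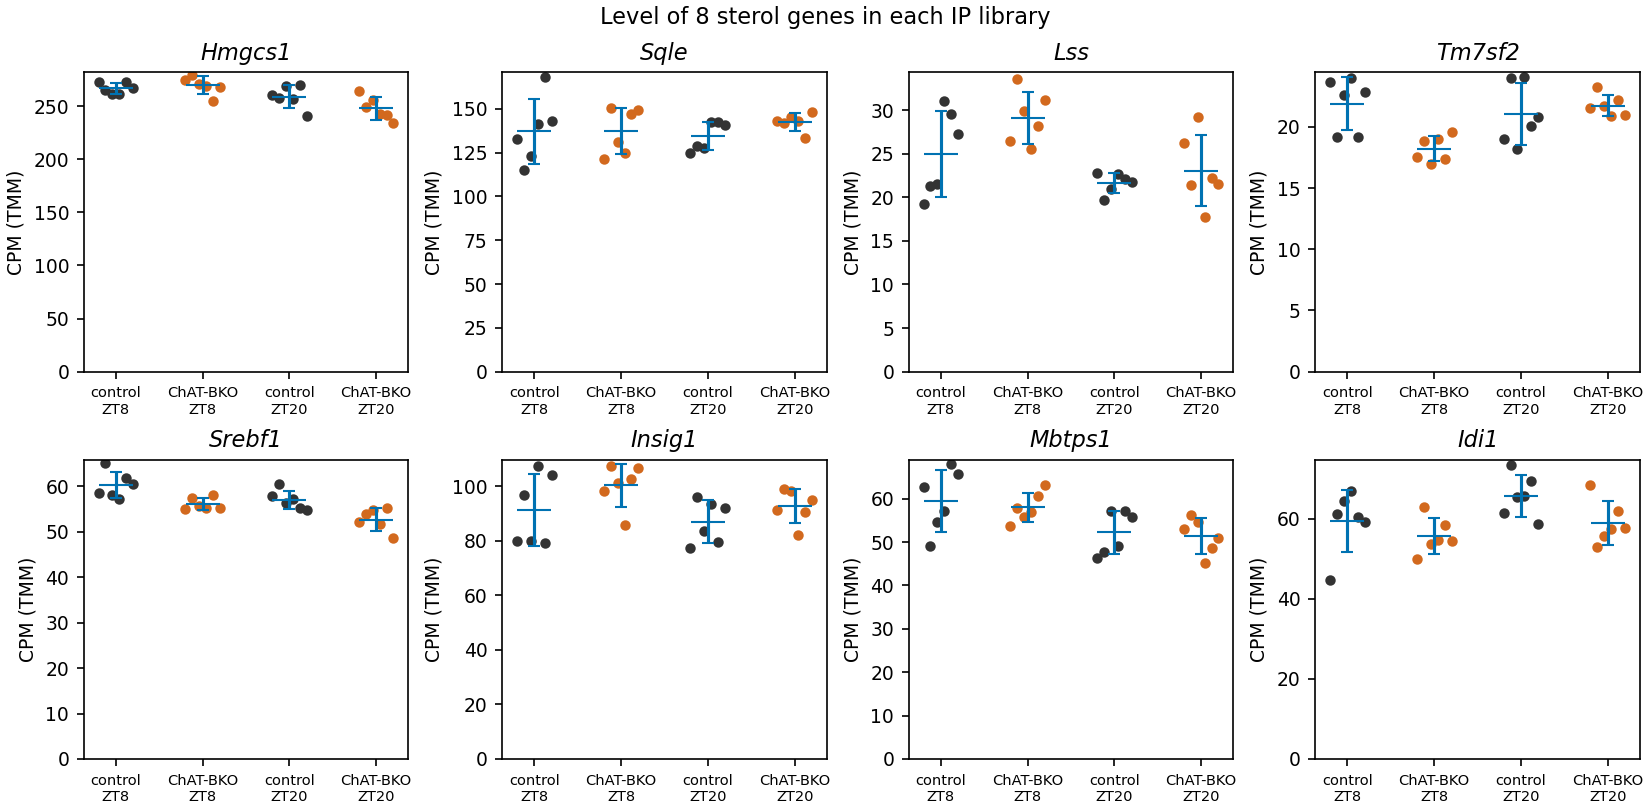
CPM after TMM scaling (vertical axis, starting at 0) of 8 genes in each of the 24 IP libraries; points are single mice (controls dark, ChAT-BKO orange) and the blue mark and bar are the mean and SD of 6. *Hmgcs1* stays between 234 and 280 CPM, and 5 of 6 ChAT-BKO points of *Tm7sf2* at ZT8 lie under all 6 controls.

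The effect of time of day was asked within each genotype. In controls, 0 of 27 members passed for ZT20 versus ZT8, where 0.115% of all genes did. There was 1 member at an unadjusted P under 0.05, against 8.25% of all genes, and DESeq2 and limma voom called 0. The log2 fold change was below 0 for 21 of 27 members, against 49.1% of all genes, with a median of -0.07 against 0.00. Members share the same libraries and are not independent replicates, so such counts of signs carry no test. *Mbtps1* (chr8:119508156-119558735) had the smallest P, from 49.2 to 67.9 CPM at ZT8 (median 59.9) and from 46.4 to 57.3 at ZT20 (median 52.5), a log2 fold change of -0.18 ± 0.08 (adjusted P = 0.581, edgeR). *Lss* stood at -0.21 ± 0.11 (adjusted P = 0.628, edgeR), or -0.13 without replicate 4 of the controls at ZT8 (adjusted P = 0.864, edgeR), and *Cyp51* at 0.11 ± 0.06 (adjusted P = 0.655, edgeR).

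In ChAT-BKO mice, 0 of 27 members passed for time, where 0.285% of all genes did, with 4 members at an unadjusted P under 0.05 against 9.42% of all genes. DESeq2 and limma voom called 0. The log2 fold change was below 0 for 19 of 27, against 49.2% of all genes, with a median of -0.05 against 0.00. *Tm7sf2*, with the smallest P of the members, ran from 17.0 to 19.6 CPM at ZT8 and from 20.9 to 23.2 at ZT20. All 6 libraries of ZT20 were above all 6 of ZT8, a separation that was not counted for all genes. Its log2 fold change of 0.25 ± 0.07 did not pass over all genes (adjusted P = 0.186, edgeR). *Lss* had a log2 fold change of -0.31 ± 0.10 (adjusted P = 0.276, edgeR), from a mean of 29.1 ± 3.00 CPM to 23.0 ± 4.08 (SD, n = 6), with 4 of 6 ZT20 libraries below every ZT8 library. *Mbtps1* stood at -0.17 ± 0.06 (adjusted P = 0.380, edgeR).

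Averaged over both genotypes, 0 of 27 members passed for time, where 2.62% of all genes did. At an unadjusted P under 0.05 there were 8 members (29.6%), against 14.3% of all genes. The median SE was 0.05 for the members and 0.12 for all genes, so these shares are not like for like. The members had the lower median SE in the other contrasts too. The log2 fold change was below 0 for 20 of 27 members, against 49.8% of all genes, and its median was -0.05 against 0.00. This count of signs, too, is over genes of the same libraries and carries no test. The 3 members with the smallest P were *Lss* (-0.26 ± 0.08, 95% interval -0.42 to -0.10, adjusted P = 0.0677, edgeR), *Mbtps1* (-0.17 ± 0.05, adjusted P = 0.0741, edgeR) and *Hmgcs1* (-0.08 ± 0.03, adjusted P = 0.141, edgeR). DESeq2 called these same 3 genes, where it called 4.01% of all genes. With edgeR's own filter on low counts *Lss* alone was called (adjusted P = 0.0496), where 4.98% of 14626 genes were. Limma voom called 0. Leaving out 1 library at a time gave from 0 to 2 called members. *Lss* was called without replicate 1 of the controls at ZT8 (adjusted P = 0.032, edgeR), where 2.09% of all genes were, and without replicate 3 of ChAT-BKO at ZT20 (adjusted P = 0.0221, edgeR), where 2.14% were. Without replicate 2 of the controls at ZT8, *Lss* (adjusted P = 0.0418, edgeR) and *Mbtps1* (adjusted P = 0.0217, edgeR) were called, where 2.24% of all genes were. For 26 of 27 members the interval lay within 1.25-fold, the exception being *Lss*.

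Single markers of other cell types were called for time, where 2.62% of all genes were. Averaged over genotypes, 4 of 4 vascular markers had a log2 fold change above 0 (median 0.34), with *Cldn5* alone called at 0.73. Of the astrocyte markers 7 of 8 did (median 0.12), with *Gjb6* alone called at 0.39. Of the oligodendrocyte markers 5 of 8 were above 0 (median 0.02), whereas *Opalin*, the only one called, was at -0.83 (adjusted P = 0.000966, edgeR). Of the microglia markers 0 of 6 were called, and of the cholinergic markers 0 of 7. The summed levels of the oligodendrocyte and astrocyte markers overlapped between the times in both genotypes. In controls all 6 skeletal muscle markers were below 0 for time (median -1.38, with 5 at an unadjusted P under 0.05 and 0 called). In ChAT-BKO all 6 were above 0 (median 0.79, with 1 at an unadjusted P under 0.05 and 0 called). Their part in the values for time was not tested.

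Whether the effect of genotype differed between the times was tested as the interaction. Here 0 of 27 members passed, where 0% of all genes did, with 1 member at an unadjusted P under 0.05 against 3.90% of all genes, and DESeq2 and limma voom called 0. The 1 member was *Tm7sf2*, with a difference of log2 fold changes of 0.31 ± 0.11 (95% interval 0.09 to 0.53, adjusted P = 1.00 by edgeR). *Cyp51* stood at -0.14 ± 0.08 and *Msmo1* at -0.13 ± 0.08 (both adjusted P = 1.00 by edgeR). The intervals were wider than in the other contrasts, and 19 of 27 lay within 1.25-fold and all 27 within 1.5-fold.

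Beyond the conditions, members differed between libraries along with transcript length. For each library the slope of log2 CPM on log2 length was taken over 11070 genes, and a higher slope means that long transcripts had relatively more reads. It ran from -0.14 to 0.11 in controls and from -0.11 to 0.03 in ChAT-BKO at ZT8, and from -0.13 to 0.00 and from -0.14 to 0.13 at ZT20, so that the groups overlapped. With the mean of each condition removed, 16 of 27 members (59.3%) had an r with this slope over 0.5 in size, against 55.3% of 11277 other genes at least as high as *Lbr*, and the slope is computed from such genes, so the count is not a result about the members. By test, 17 of 27 members correlated with it over the 24 libraries by Pearson's r and 15 by Spearman's rho (adjusted P < 0.05 over 27 relations, permutation within conditions, two-sided). Other genes were not put to this test, so these counts too are not a result about the members. *Fdps* had r = -0.94 (rho -0.90, permutation P = 1e-05, the smallest that 100000 resamples give, adjusted P = 5.4e-05, and r = -0.92 without the 2 libraries farthest from the median slope). *Ebp* had r = -0.92 and *Pmvk* r = -0.90. On the other side were *Nsdhl* at 0.87, *Lss* at 0.81, *Srebf2* at 0.76 and *Scap* at 0.75. *Hmgcs1* (0.27), *Acat2* (0.05), *Srebf1* (0.15) and *Insig1* (0.17) showed no correlation past the threshold. *Sc5d* rested on the 2 farthest libraries, with r = 0.62 over 24 and 0.31 over the rest. With the mean level of the oligodendrocyte and astrocyte markers, 0 of 27 members correlated after adjustment (smallest adjusted P = 0.315 for r and 0.105 for rho, permutation), and 3 and 7 did at an unadjusted P under 0.05. Other genes were not tested against these markers, so the counts have no background share.

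The same axis ran through the relations between members. Of 351 pairs, 44 correlated positively and 32 negatively (adjusted P < 0.05, permutation within conditions), with a median r of 0.05, against 0.00 for members with other genes. An r over 0.5 was found in 15.1% of member pairs and in 13.0% of pairs of a member with another gene. The highest was that of *Pmvk* and *Fdft1* (r = 0.90, rho = 0.89, permutation P = 1e-05, adjusted P = 0.000351), which was 0.59 once the slope was removed from both. Without the 2 libraries whose level of *Pmvk* lay farthest from its median, the r of this pair was 0.85. *Mvk* and *Fdps* stood at 0.89 (0.60 with the slope removed), and *Fdps* and *Ebp* at 0.87 (0.03 with the slope removed). The lowest was *Fdps* and *Lss* at -0.79, or -0.12 with the slope removed. The highest values with the slope removed were those of *Hsd17b7* and *Sc5d* (0.77, then 0.79), *Acat2* and *Fdft1* (0.37, then 0.79) and *Hmgcs1* and *Lbr* (0.69, then 0.74). They are the top of 351 pairs, and no pair was tested with the slope removed. Pairs over 0.5 in size numbered 96, and 38 with the slope removed, a step added after seeing the data.

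**Figure D3:**
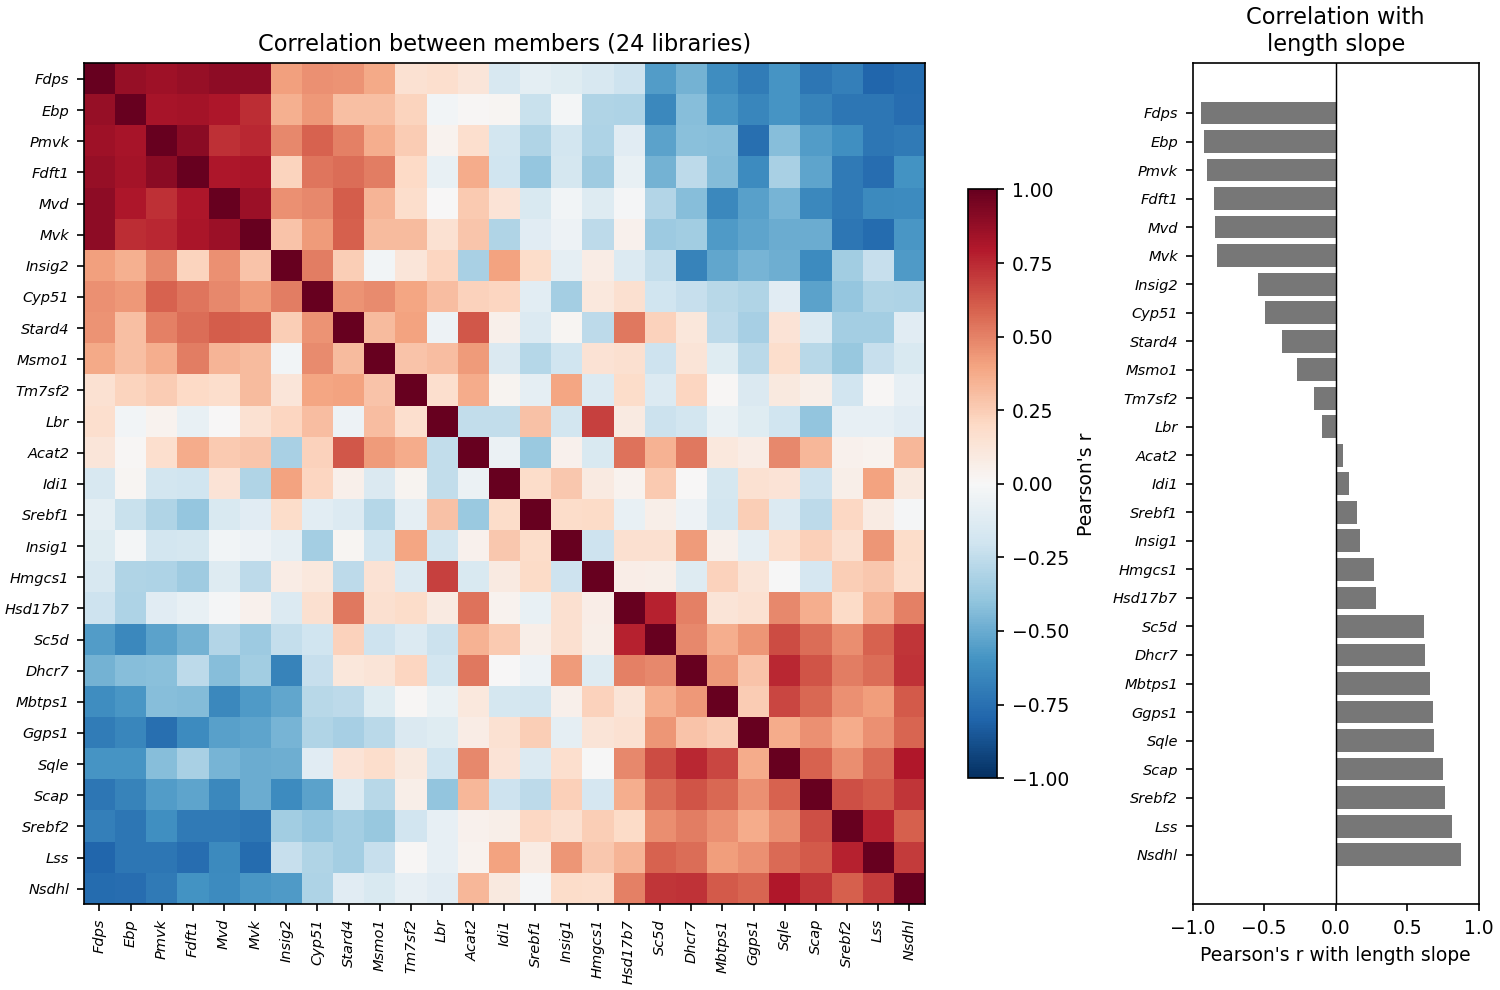
Left, Pearson's r between the 27 genes over 24 IP libraries, with condition means removed, on a colour scale from -1 (blue) to 1 (red); right, Pearson's r of each gene with the length slope of the libraries, in the same order. The 6 genes at the top, from *Fdps* to *Mvk*, vary together and against *Lss* and *Nsdhl* at the bottom.

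With the length slope as a covariate, standard errors of the members shrank (median 0.03 against 0.05 for both averaged contrasts) and more of the whole table was called. For genotype averaged over times, *Srebf1* alone of the 27 was called, lower in ChAT-BKO (log2 fold change -0.11 ± 0.03, adjusted P = 0.0408, edgeR), where 1.88% of all genes were. *Srebf1* also had the highest r of the members with the oligodendrocyte and astrocyte markers (0.55, permutation P = 0.012, adjusted P = 0.315). The part of glial RNA in its fold change was not tested. For time in ChAT-BKO, *Lss* (-0.39, adjusted P = 0.000332), *Mbtps1* (-0.19, adjusted P = 0.0218) and *Hmgcs1* (-0.13, adjusted P = 0.0334) were called lower at ZT20 (edgeR), where 2.3% of all genes were. For time averaged over genotypes 5 members were called, all lower at ZT20, where 6.95% of all genes were. They were *Lss* (-0.30, adjusted P = 6.5e-05), *Mbtps1* (-0.18, adjusted P = 0.00255), *Hmgcs1* (-0.08, adjusted P = 0.0176), *Dhcr7* (-0.12, adjusted P = 0.0281) and *Fdft1* (-0.08, adjusted P = 0.0287). In the other 4 contrasts 0 members were called with the covariate. Of the genes called, *Lss*, *Srebf1*, *Hmgcs1* and *Fdft1* overlap a gene on the opposite strand, whereas *Mbtps1* and *Dhcr7* have no overlap.

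**Figure D4:**
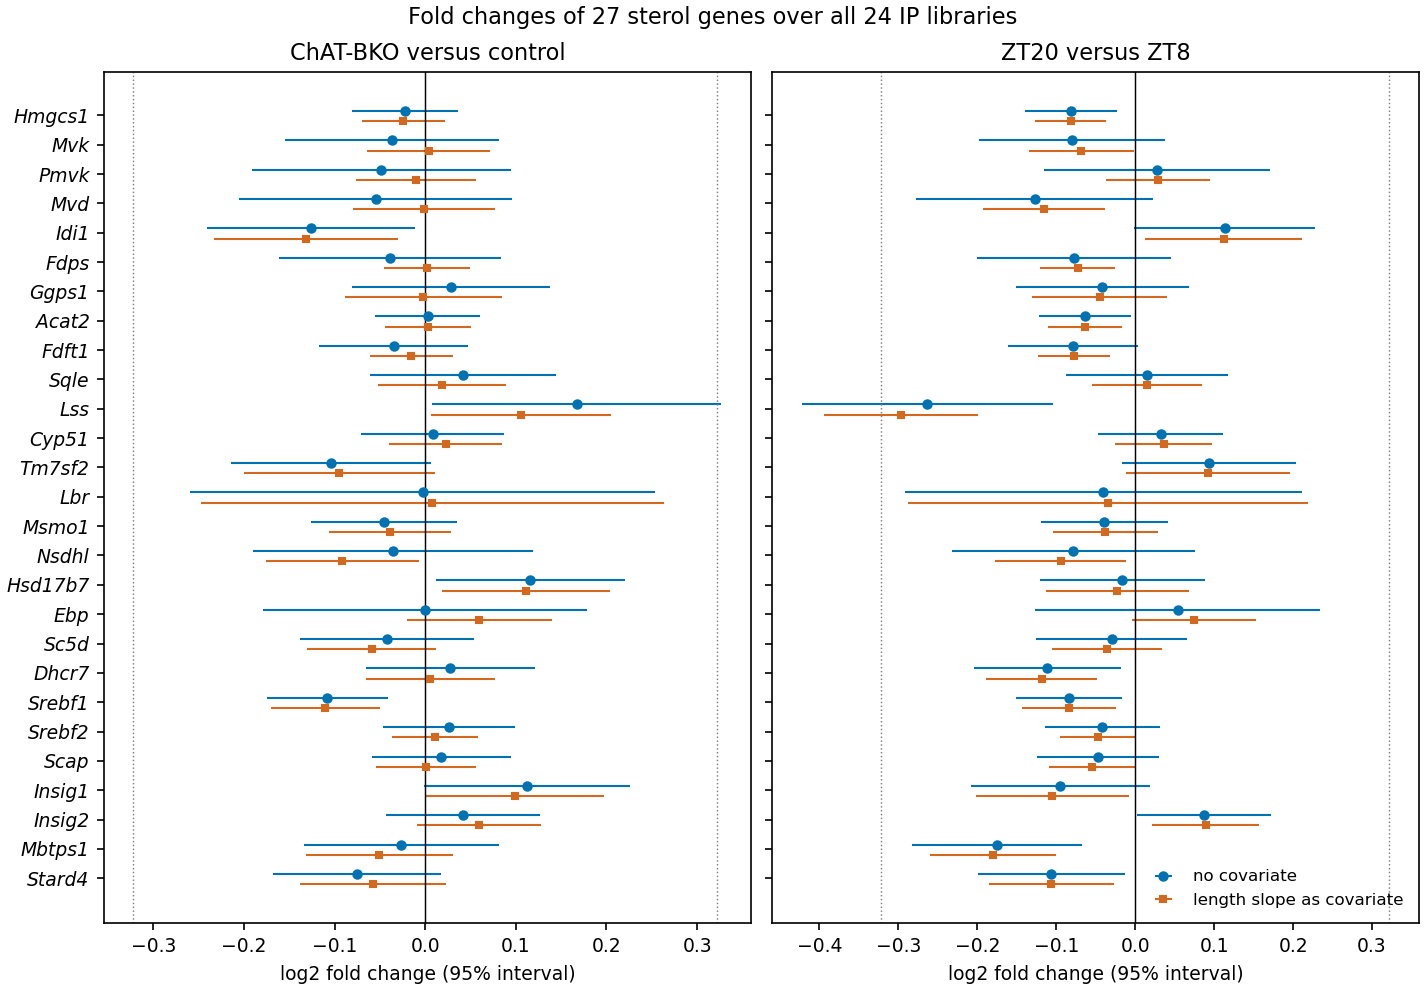
Log2 fold change (horizontal axis) with its 95% interval for the 27 genes over all 24 IP libraries, for ChAT-BKO versus control (left) and ZT20 versus ZT8 (right), without a covariate (blue circles) and with the length slope as covariate (orange squares); dotted lines mark 1.25-fold and the horizontal scales differ. Intervals of *Lss* pass the dotted line, on the left upward without the covariate and on the right downward with both fits.

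Another 20 genes of sterol transport, storage, export and turnover, among them *Npc1*, *Abca1* and *Soat1*, gave 0 calls in each of the 7 contrasts (edgeR), with between 0 and 3 of 20 at an unadjusted P under 0.05. Their median log2 ratio of IP to input was -0.06, against 0.31 for the members. The 5 genes whose levels followed *Sqle* most closely over the 24 libraries, with condition means removed, were *Vat1l* (r = 0.90), *Capn2* (0.89), *Dele1* (0.89), *Dag1* (0.88) and *Copb1* (0.88). No other member was among them, but 5 places among all genes tested say little about 27 members. Of the members, *Nsdhl* (0.80) and *Dhcr7* (0.75) were closest to *Sqle*. The length slope, with which *Sqle* had r = 0.68, was not removed for these values.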

How the data were processed

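RNA was sequenced from 24 HA IPs of spinal cord and 1 pooled input. The authors aligned reads with STAR 2.7.5 to mm10 and estimated gene counts with RSEM, and the deposited table holds these expected counts, not normalised. Of the IP values 6.08% are not whole, and they were rounded to whole numbers. Genes with at least 10 counts over the 24 IPs were kept. Levels are CPM after TMM scaling. Contrasts were fitted with edgeR 4.0.16 (quasi-likelihood) in R 4.3.3, on the 12 libraries concerned or on all 24, with Benjamini-Hochberg adjustment over all genes; the fits were tested on simulated data. Members called, or otherwise the 3 with the smallest P, are given in full, and *Hmgcs1*, *Sqle*, *Insig1* and *Srebf1* by library. Alternatives were DESeq2 1.42.0, limma 3.58.1 voom, DESeq2 size factors, other filters, all 24 libraries, a replicate block, the length slope and leaving out each library. Logarithms in ratios used a prior count of 2. Transcript lengths are from GENCODE. Members, lists and the length slope were chosen with earlier results of these data known. Replicate numbers were not treated as pairs of mice in the main fits. The correlation of same-numbered libraries ran from -0.28 to 0.36, and that of libraries with different numbers from -0.55 to 0.52. These ranges do not show whether the numbers mark a shared batch.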

Additional observations from a re-analysis of the deposited data

Results flagged for a closer look

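In each group of 6 libraries, the lowest or highest value was marked where its gap to the nearest library, as a share of the group's range on the log2 scale, exceeded 0.625. This held in 7 of the 108 combinations of gene and group, and chance marks about 1 in 20 groups.

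Replicate 1 of the controls at ZT20 was lowest for *Pmvk* (106 CPM against 124 to 133 in the others, share 0.670) and for *Fdft1* (297 against 326 to 344 CPM, share 0.628). Replicate 1 of the controls at ZT8 was lowest for *Idi1* (44.5 against 59.2 to 66.8 CPM, share 0.703). *Ggps1* was highest in replicate 5 of ChAT-BKO at ZT8 (33.8 against 27.2 to 28.6 CPM, share 0.771) and *Scap* in replicate 6 of that group (93.5 against 82.5 to 86.1 CPM, share 0.654). *Lbr* was lowest in replicate 6 of the controls at ZT20 (2.07 against 3.19 to 3.80 CPM, share 0.709, on 26 counts) and in replicate 6 of ChAT-BKO at ZT20 (2.29 against 3.17 to 3.70 CPM, share 0.677, on 12 counts).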

How the results depend on the processing

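The count of called members stayed at 0 for genotype at each time, time in controls and the interaction under every alternative run. With the length slope as a covariate it was 1 for genotype averaged over times, 3 for time in ChAT-BKO and 5 for time averaged over genotypes, where DESeq2 gave 3, edgeR's own filter 1 and leaving out 1 library from 0 to 2; beyond those fits the cause was not tested. With a replicate block it was 0 in all contrasts. Of 24 libraries 4 correlated best with their own number, which does not show whether the numbers mark pairs or batches. The 21 fold changes given in full kept their sign in all 159 alternative and 360 left-out fits, and the value of *Lss* for time in controls alone moved by over 1.5 times, to -0.13 without replicate 4 of the controls at ZT8. The median ratio of IP to input was -0.15 on total counts, with 11 of 27 members above 0 against 19, and the median of all genes was -0.45 against -0.06. Removing the slope left 38 pairs over 0.5. Calls over all genes with the slope were 1511 against 570 for time averaged, 409 against 142 for genotype averaged, 499 against 62 for time in ChAT-BKO, 342 against 25 for time in controls, 162 against 40 for genotype at ZT8 and 166 against 50 at ZT20. DESeq2 gave 872, 225, 218, 127, 70 and 93 in the same order. The block gave 69 for genotype at ZT8 and 86 for time in controls, voom 14 for the latter, and all 24 libraries 140 for time in ChAT-BKO. Depth limits *Lbr* most, with as few as 9 counts in a library.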
